A study of Oryctolagus cuniculus with 27 samples.

Results

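The genes described here encode the working parts of the lysosome: its hydrolases, 2 activator proteins, the cholesterol export pair NPC1 and NPC2, its membrane proteins, subunits of the proton pump that acidifies it, and the transcription factors TFEB and TFE3. The list of 36 genes was given by name, without the cathepsins, and a gene was kept if it was in the full count tables of aortic valve, ascending aorta and myocardium. Of the 36, 34 were found among the 31346 genes of those tables, 33 by symbol and MAN2B1 by the RefSeq gene number in its entry, LOC103346838. The other 2, GALNS and IDUA, were not analysed here. All 34 passed the filter on low counts in each fit, so each comparison below tested all 34.

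Lysosomes break down material taken up from outside the cell and from the cell itself. Soluble hydrolases work at low pH, which the vacuolar proton pump maintains: its membrane sector, V0, carries protons across the membrane, and its cytosolic sector, V1, hydrolyses ATP. Cholesterol freed from lipoprotein esters inside the lysosome is passed by the soluble NPC2 to the membrane protein NPC1 and leaves. TFEB and TFE3 are transcription factors of many lysosomal genes, and macrophages, which take up lipoprotein in cholesterol-fed vessels and valves, are rich in lysosomes.

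The tissue came from male, wild-type New Zealand rabbits, the valve samples being a cusp each, and no age in weeks of life or pooling of animals is given in the sources used here. Diet animals ate a feed with 1% cholesterol and received 3500 IU of ergocalciferol (vitamin D2) per kg per day, and controls ate normal feed. Aortic valves were taken after 2, 4 and 7 weeks of diet (n = 4 each) and from controls (n = 4). Ascending aorta (3 controls, 2 on diet) and left ventricular myocardium (3 controls, 3 on diet) were sequenced beside them, with no duration in their labels. The control valves are titled 7 weeks in 3 cases and 2 weeks in 1 (control replicate 4), while the design text says that controls of 2 and 4 weeks were pooled, so their age is uncertain. By the animal numbers, the libraries of a group come from different animals. The 3 diet myocardia come from 7-week valve animals, 2 control myocardia from control valve animals and 1 diet aorta from a 2-week valve animal. The library numbers of each valve group run on from each other, except for 4-week replicate 1. Whether they mark sequencing runs is not given, so run and group cannot be told apart.

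Total counts per library were 8458433 to 19998949 in valve, 11509598 to 16107404 in aorta and 13954419 to 17322360 in myocardium, and the lowest count of any of the 34 genes in a library was 40. Levels are given as CPM, read counts scaled to a common library size after TMM scaling within each tissue. Genes are not compared with each other by CPM, because no lengths were used. The labelled tissues were checked against markers, as summed CPM of the library total. Interstitial and fibroblast markers summed to 11535 to 19718 in control valve and to 12183 to 17028 in control aorta, so their sum did not set valve apart from aorta. Smooth muscle markers summed to 52055 to 62708 in control aorta and to 19108 to 35687 in control valve, and cardiomyocyte markers to 72476 to 102769 in control myocardium. Valve libraries also held cardiomyocyte markers, 8381 to 37489.7 in controls and 1312 to 6557, 2917 to 33399.6 and 9464 to 42220.5 at 2, 4 and 7 weeks. The valve libraries that stood apart were 7-week replicate 2, with the lowest total and TMM factor (0.784) of the valves, and 4-week replicate 4, whose 13 macrophage markers summed to 553 against 1489.6 to 2453 in the other 3 of its group. In myocardium, diet replicate 1 had the lowest TMM factor (0.851) and 7.54% of its counts in the ribosomal gene RN18S, against 1.16% to 2.22% in the other 5. Control replicate 3 had the highest factor (1.16) and a smooth muscle sum of 1617, against 509 to 767.

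In the valve the hydrolases MAN2B1 and GUSB rose with the diet at 4 and at 7 weeks, and the pump subunit ATP6V1B2 rose at 7 weeks. No member of the list passed the test at 2 weeks, and none was lower than in controls past the test at any time. At 2 weeks 0 of 34 passed edgeR's quasi-likelihood test (adjusted p below 0.05 over all genes), where 0.025% of all 15973 genes did. At an unadjusted p below 0.05 there were 3 of 34, beside 2622 of all 15973 genes. DESeq2, which called more of all genes (given further on), called 1, GLB1. The count was 2 of 34 at 4 weeks, where 2% of all genes passed, and 3 of 34 at 7 weeks, where 7.79% did, so at 7 weeks the share of the list was near that of all genes. The 4-week count was 6 when 4-week replicate 4 was left out, adding GLB1, TPP1, SMPD1 and ATP6V1B2. It was 1 (MAN2B1) without replicate 1 of the 4-week or the control group and 0 when any other single library of these groups was left out. Calls over all genes in these fits ran from 0 to 791. The 7-week count was 7 when 7-week replicate 1 was left out, adding GLB1, HEXA, NAGLU and ATP6V0C. It was 2 (MAN2B1 and NAGLU) without control replicate 1 and 1 (MAN2B1) when any of the other 6 libraries was left out. Over all genes the 7-week calls in these fits ran from 445 to 2261.

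Most members had values above 0 whether or not they passed. The median log2 fold change of the 34 was 0.15, 0.25 and 0.17 at 2, 4 and 7 weeks, beside 0.02, -0.03 and -0.01 over all genes tested. Values above 0 were found for 25, 29 and 26 of the 34, beside 52%, 45.9% and 49.3% of all genes. The 3 comparisons share the same 4 control libraries, so these values are not independent of each other. Among the 12 hydrolases the median was 0.48 at 4 weeks and 0.42 at 7 weeks. For the 11 pump genes the values at 7 weeks ran from -0.24 to 0.69.

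**Figure D1:**
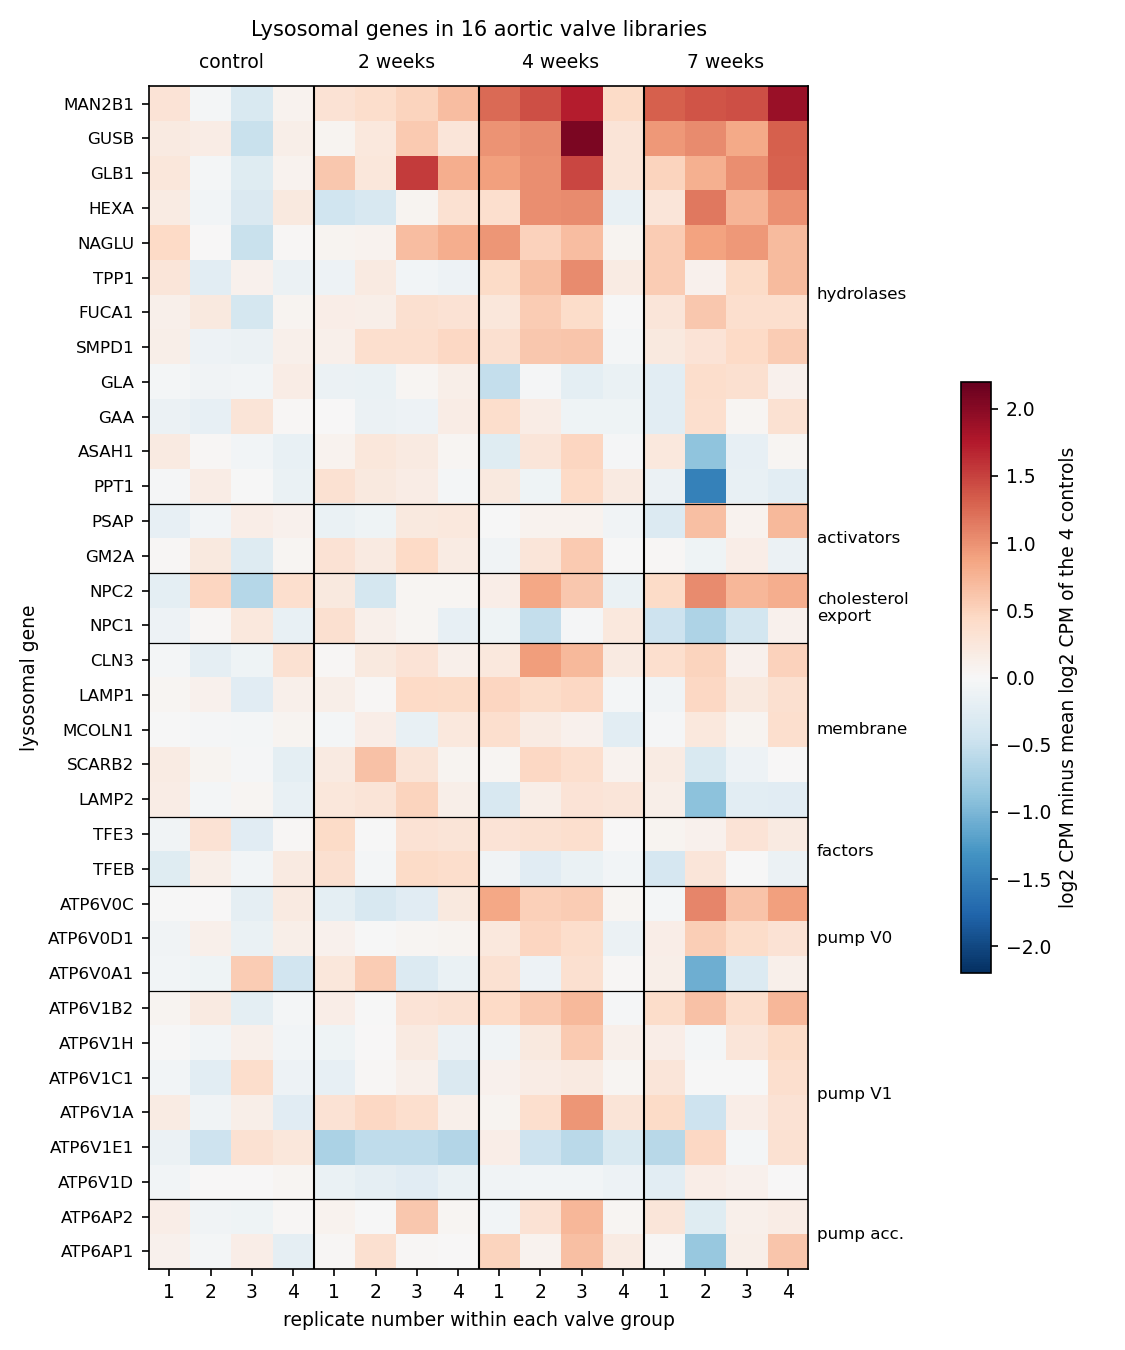
Log2 CPM of the 34 genes (rows, grouped by role) in the 16 valve libraries (columns), each as the difference from the mean of the 4 controls, from blue (lower) to red (higher). MAN2B1 and GUSB are red in 4-week replicates 1 to 3 and all 4 of the 7-week libraries, and GLB1 is reddest in 2-week replicate 3. Other rows hold red cells too, among them HEXA, NPC2 and ATP6V0C in 7-week replicate 2. The column of 4-week replicate 4 is pale in all rows.

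MAN2B1, the lysosomal alpha-mannosidase that trims glycoprotein sugars, had the largest change. Its level in control replicates 1 to 4 was 131, 103, 84.2 and 113 CPM. At 2 weeks it was 133, 139, 149 and 170.3 CPM, at 4 weeks 253, 283, 355 and 142 CPM and at 7 weeks 265, 277, 284 and 397 CPM. All 12 diet valves lay above all 4 controls, the 2-week valves and 4-week replicate 4 just above them and the rest far above. How many of all genes did so was not computed. The log2 fold change was 0.45 ± 0.23 (SE of the fit) at 2 weeks (adjusted p = 0.354), 1.26 ± 0.23 at 4 weeks (2.39-fold, adjusted p = 0.0192) and 1.503 ± 0.24 at 7 weeks (2.83-fold, adjusted p = 0.0063). The 7-week call held in each of the 8 fits without 1 library, at 1.35 to 1.59. The 4-week call was lost when 1 of the 5 libraries 4-week replicates 2 and 3 and control replicates 2 to 4 was absent, with 1.07 ± 0.23 (adjusted p = 0.0649) in the fit without 4-week replicate 3. Without 4-week replicate 4 it was 1.46 ± 0.19 (adjusted p = 0.00131).

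GUSB, the beta-glucuronidase that removes glucuronic acid from glycosaminoglycans, stood at 32.3, 31.5, 20.1 and 30.8 CPM in the controls. The 2-week valves had 29.5, 33.1, 42.1 and 33.9 CPM, the 4-week valves 55.8, 58.0, 119 and 34.3 CPM and the 7-week valves 54.6, 58.2, 50.4 and 70.2 CPM. At 2 weeks the values overlapped the controls, and at 4 and 7 weeks each library was above them, 4-week replicate 3 highest of all. GUSB was among 3 of 34 genes wholly above the controls at 4 weeks, with 0 wholly below, where 4.11% and 2.02% of all genes were. The log2 fold change was 1.22 ± 0.29 at 4 weeks (2.33-fold, adjusted p = 0.0398) and 1.02 ± 0.29 at 7 weeks (2.03-fold, adjusted p = 0.0401). Both calls were lost in 7 of 8 fits without 1 library. The 4-week call held without 4-week replicate 4, and the 7-week call held without 7-week replicate 1. Without 4-week replicate 3 the 4-week value was 0.78 ± 0.21 (adjusted p = 0.117), and without control replicate 3, the lowest control, the 7-week value was 0.89 ± 0.30 (adjusted p = 0.118).

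GLB1, lysosomal beta-galactosidase, had the third largest value at 7 weeks and did not pass the test. Control valves had 108, 88.9, 75.6 and 96.3 CPM, 2-week valves 138, 109, 266 and 159.7 CPM, 4-week valves 172, 185, 255 and 112 CPM and 7-week valves 128, 157, 185 and 224 CPM. Every diet library was above every control, by a narrow margin in 2-week replicate 2 and 4-week replicate 4, and the highest of the 16 was 2-week replicate 3. The share of all genes with diet and control valves so parted was not computed. The log2 fold change was 0.87 ± 0.28 at 2 weeks (adjusted p = 0.126), 0.97 ± 0.28 at 4 weeks (adjusted p = 0.0936) and 0.91 ± 0.28 at 7 weeks (adjusted p = 0.0569). It was the largest of the list at 2 weeks.

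The remaining 9 hydrolases did not pass against controls. HEXA, the alpha subunit of beta-hexosaminidase, had 154, 129.8, 109 and 157 CPM in the controls, 100.2, 106, 142 and 172 CPM at 2 weeks, 175, 275, 279 and 122 CPM at 4 weeks and 164, 305, 229 and 274 CPM at 7 weeks. Its 7-week libraries were all above the controls, its 2-week and 4-week libraries overlapped them, and the 7-week log2 fold change was 0.82 ± 0.27 (adjusted p = 0.0709). NAGLU, which acts on heparan sulfate, was at 45.7 ± 11.5 CPM (SD, n = 4) in controls and 76.8 ± 9.63 CPM at 7 weeks, with 0.75 ± 0.23 on the log2 scale (adjusted p = 0.0554). TPP1, a peptidase, had its larger value at 4 weeks, 0.60 ± 0.18 (adjusted p = 0.117). FUCA1 (alpha-fucosidase) and SMPD1 (acid sphingomyelinase) were above every control in all 4 of the 7-week valves, with 0.39 ± 0.15 and 0.38 ± 0.15. In all, 9 of the 34 genes had the 7-week libraries wholly above the controls and 0 wholly below, where 8.95% and 6.29% of all genes did. GAA (acid alpha-glucosidase), GLA (alpha-galactosidase) and ASAH1 (acid ceramidase) stayed between -0.15 and 0.17 at 7 weeks, and PPT1, a palmitoyl thioesterase, had the lowest value of the list, -0.41 ± 0.22 (adjusted p = 0.26), with 7-week replicate 2 far below the other 3.

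The sphingolipid activators and the cholesterol export pair did not pass against controls. PSAP, the precursor of the saposins, was at 1325 ± 135 CPM in controls and 1676 ± 532 CPM at 7 weeks, and GM2A was at 216 ± 30.1 and 213 ± 18.6 CPM. NPC2 had a 7-week value of 0.70 ± 0.25 (adjusted p = 0.0959) and its partner NPC1 one of -0.34 ± 0.18 (adjusted p = 0.259). The members of that pair thus lay on opposite sides of 0, and neither difference from controls passed.

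None of the 5 membrane proteins passed against controls. LAMP1, an abundant glycoprotein of the lysosomal membrane, was at 314 ± 34.4 CPM in controls and 375 ± 52.2, 394 ± 61.4 and 372 ± 56.5 CPM at 2, 4 and 7 weeks. CLN3 had 0.53 ± 0.18 at 4 weeks (adjusted p = 0.155), and the calcium channel MCOLN1 and the receptor SCARB2, which carries glucocerebrosidase to the lysosome, lay between -0.06 and 0.30 at the 3 times. The mRNA of the transcription factors showed no call: TFEB was at 36.9 ± 5.25 CPM in controls and 44.8 ± 6.15, 33.5 ± 1.88 and 35.5 ± 6.40 CPM at the 3 times. TFE3 had values of 0.25, 0.25 and 0.15 on the log2 scale. These factors are known to be controlled by phosphorylation and location in the cell, which RNA does not measure.

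**Figure D2:**
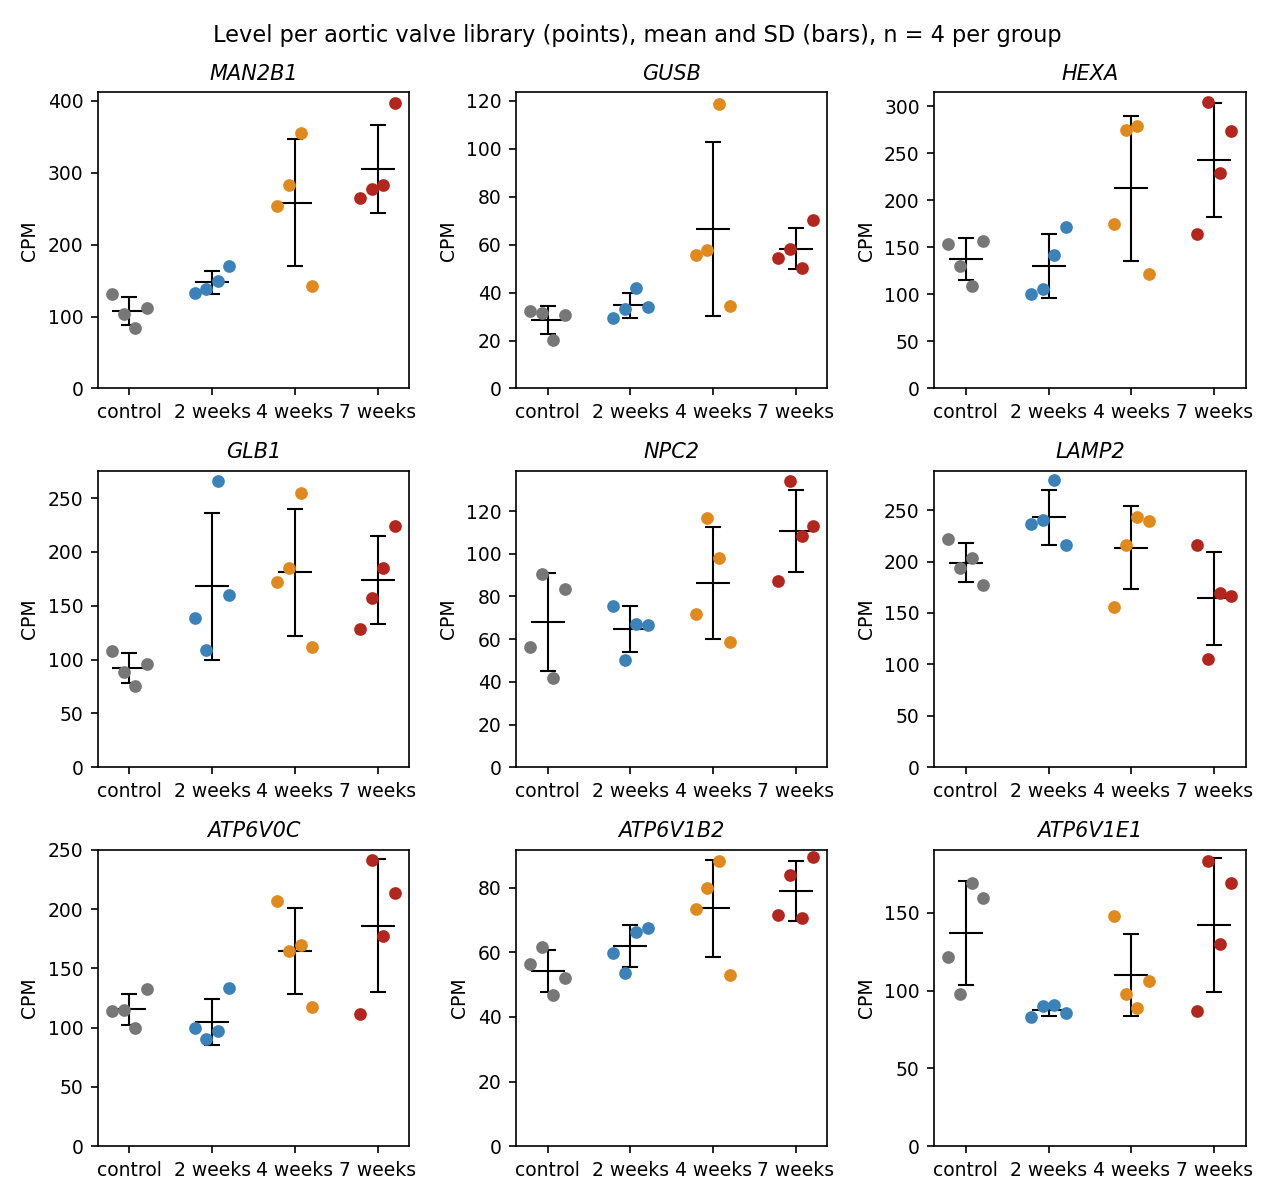
CPM of 9 genes per valve library (points, replicates 1 to 4 from left to right in each group) with the mean and SD (n = 4). MAN2B1 and GUSB are high in 3 of 4 of the 4-week and in all 7-week libraries, GLB1 is already above the controls at 2 weeks, and ATP6V1E1 is tightly low at 2 weeks.

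Of the proton pump genes, ATP6V1B2, a subunit of the V1 head, was the one called against controls. Its level was 56.4, 61.7, 46.7 and 52.1 CPM in controls, 59.9, 53.8, 66.5 and 67.7 CPM at 2 weeks, 73.4, 80.0, 88.3 and 53.1 CPM at 4 weeks and 71.4, 83.9, 70.7 and 89.7 CPM at 7 weeks. The 7-week libraries did not overlap the controls, and the 4-week ones did through replicate 4. The 7-week log2 fold change was 0.54 ± 0.16 (1.46-fold, adjusted p = 0.0449), and the call was lost in every fit without 1 library except that without 7-week replicate 1, at 0.47 ± 0.17 without control replicate 3 (adjusted p = 0.127). ATP6V0C, the proton-carrying ring subunit, had 0.69 ± 0.22 at 7 weeks (adjusted p = 0.0676), and ATP6V0D1 had 0.36 ± 0.13 (adjusted p = 0.112). ATP6V0A1, another V0 subunit, had -0.24 ± 0.27, so V0 subunits lay on both sides of 0. The other 5 V1 genes (ATP6V1A, ATP6V1C1, ATP6V1D, ATP6V1E1 and ATP6V1H) lay between 0.01 and 0.20 and the accessory subunits ATP6AP1 and ATP6AP2 at 0.07 and 0.08.

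ATP6V1E1, of the V1 stalk, was the pump gene with the lowest value at 2 weeks. Controls had 122, 97.5, 169 and 159.6 CPM and 2-week valves 83.0, 90.3, 90.9 and 85.9 CPM, a narrow band below all controls. The 4-week valves had 148, 97.5, 88.6 and 106 CPM and the 7-week valves 87.2, 183, 129.7 and 169 CPM, both overlapping the controls. The 2-week log2 fold change was -0.64 ± 0.23 (adjusted p = 0.164). At 2 weeks 2 of 34 genes lay wholly above the controls (GLB1 and MAN2B1) and 2 wholly below (ATP6V1D and ATP6V1E1), where 4.76% and 6.14% of all genes did.

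**Figure D3:**
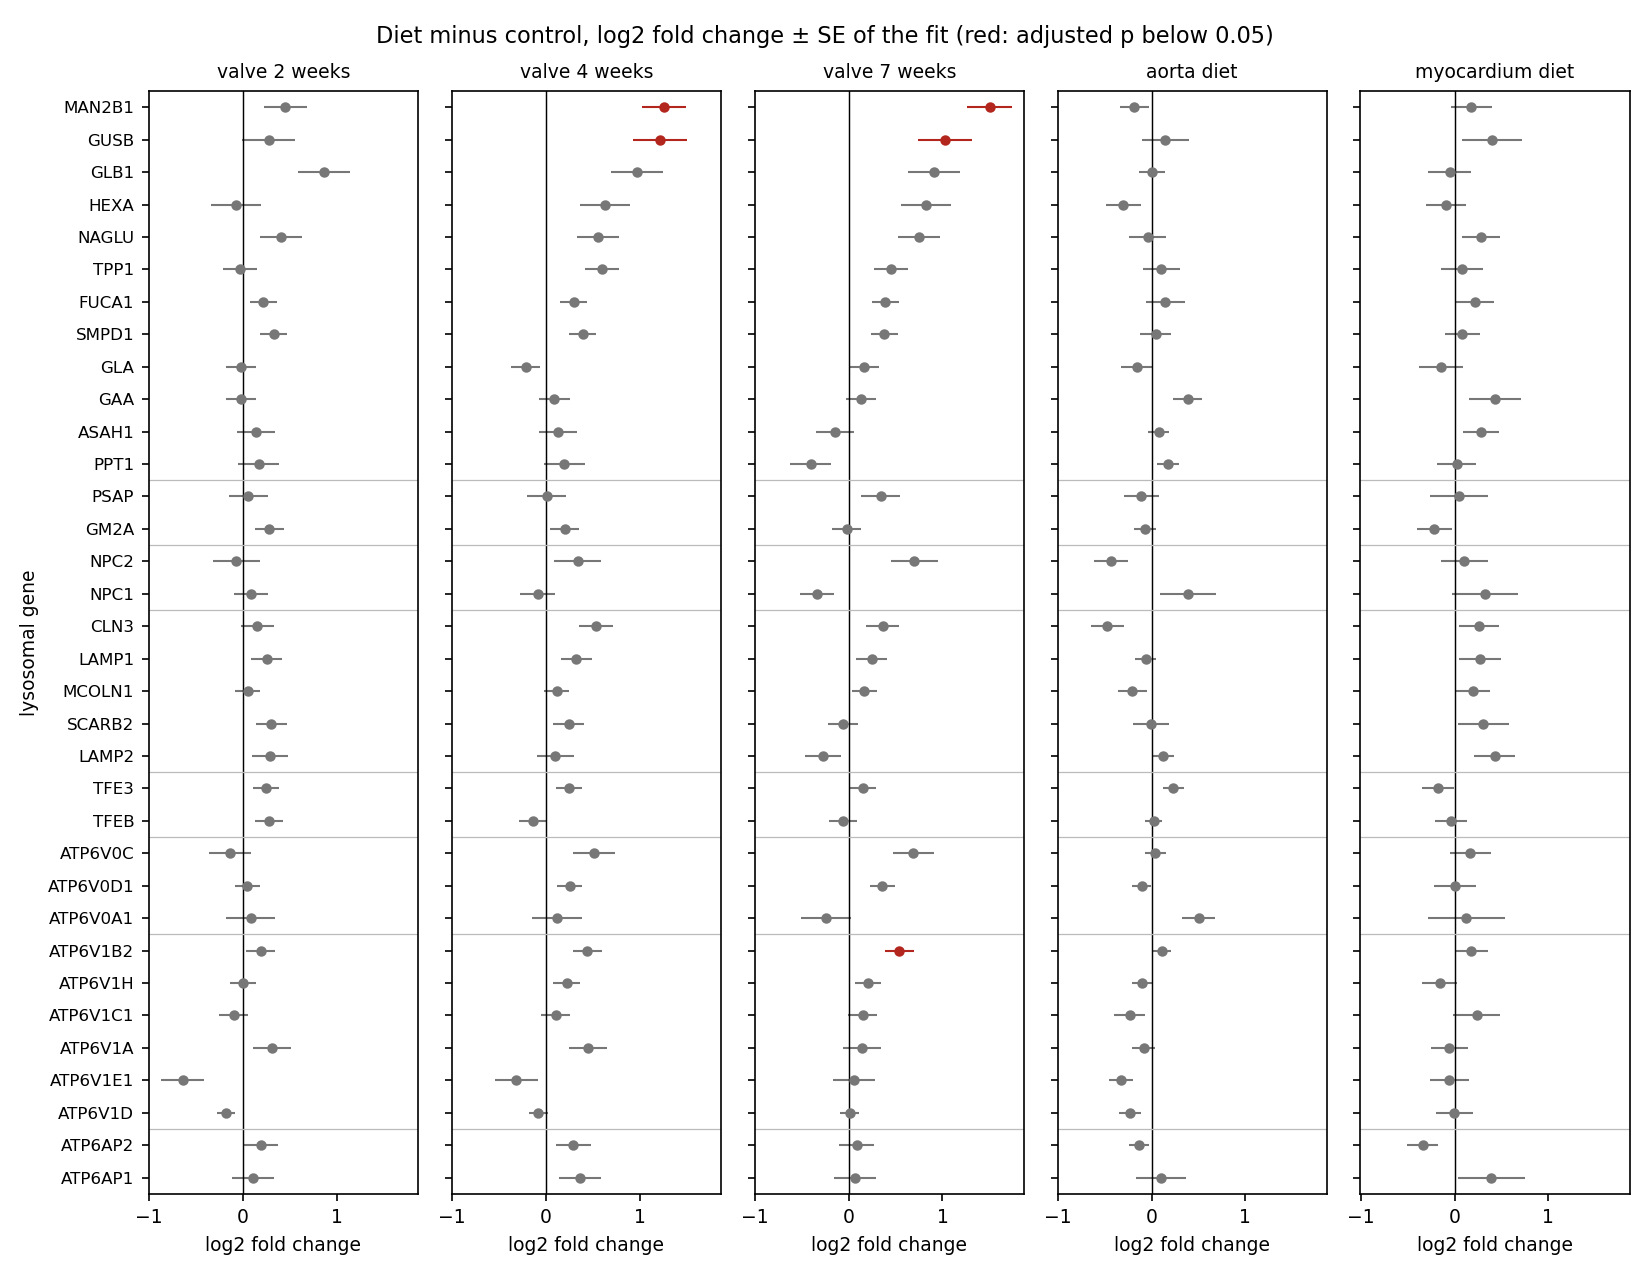
Log2 fold change of each gene, diet minus control, with the SE of the fit, in the valve at 2, 4 and 7 weeks, the aorta and the myocardium (red: adjusted p below 0.05). The hydrolases at the top lean to the right at 4 and 7 weeks in the valve, with MAN2B1 at 1.26 and 1.503, and no gene of the aorta or myocardium panel is red.

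Between diet times, 5 members rose and 1 fell from 2 to 7 weeks, 6 of 34 where 26.7% of all genes were called. The genes that rose were MAN2B1 (1.05 ± 0.23, adjusted p = 0.00587), HEXA (0.90 ± 0.27, adjusted p = 0.0241), ATP6V0C (0.83 ± 0.22, adjusted p = 0.0151), NPC2 (0.77 ± 0.25, adjusted p = 0.0347) and ATP6V1E1 (0.70 ± 0.23, adjusted p = 0.0354). LAMP2, the other abundant lysosomal membrane glycoprotein, fell by 0.56 ± 0.19 (adjusted p = 0.0438). The calls of MAN2B1 and ATP6V0C held in all 8 fits without 1 library, and those of the other 4 were lost in 4 to 7 of 8, each of them held without 7-week replicate 1. Without 7-week replicate 2 the values were 0.78 ± 0.28 for HEXA, 0.67 ± 0.26 for NPC2, 0.56 ± 0.24 for ATP6V1E1 and -0.40 ± 0.17 for LAMP2, none of them past the test. The count was 9 without 7-week replicate 1, 3 without 7-week replicate 4 or 2-week replicate 2 or 3, and 2 without 2-week replicate 1. Calls over all genes ran from 2626 to 5608 in the fits without 1 library.

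The levels behind these calls show where the groups part. ATP6V0C was at 114, 115, 100.1 and 132 CPM in controls, 99.4, 90.2, 97.0 and 133 CPM at 2 weeks, 207, 165, 169.7 and 118 CPM at 4 weeks and 112, 242, 177 and 214 CPM at 7 weeks, with 7-week replicate 1 inside the range of the 2-week valves. NPC2 was at 56.4, 90.5, 42.04 and 83.6 CPM in controls, 75.6, 50.1, 67.0 and 66.8 CPM at 2 weeks, 71.7, 117, 97.8 and 58.7 CPM at 4 weeks and 87.1, 134, 108 and 113 CPM at 7 weeks. Its controls were as widely spread as its diet groups, and its 2-week and 7-week valves did not overlap. LAMP2 was at 222, 193, 204 and 177 CPM in controls, 236, 240.0, 279 and 216 CPM at 2 weeks, 156, 216, 243 and 239.8 CPM at 4 weeks and 216, 106, 169 and 167 CPM at 7 weeks, lowest in 7-week replicate 2. The 2-week valves were the highest group for LAMP2, narrowly above the highest 7-week library. From 2 to 7 weeks 5 of 34 genes lay wholly above and 3 wholly below, where 13.1% and 11.5% of all genes did.

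From 2 to 4 weeks 0 of 34 passed in edgeR, where 4.36% of all genes did. There were 7 at an unadjusted p below 0.05, beside 3147 of all 15973 genes. DESeq2 called 3, GUSB, MAN2B1 and TPP1. Without 4-week replicate 4 edgeR called 5: GUSB, MAN2B1, TPP1, HEXA and ATP6V0C. Calls over all genes ran from 207 to 1225 in the fits without 1 library. From 4 to 7 weeks 0 of 34 passed in edgeR, where 0.1% of all genes did, and 0 in DESeq2. At an unadjusted p below 0.05 there were 2, beside 1921 of all 15973 genes.

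Macrophage markers moved with the same libraries. None of the 13 markers on the list that were found (CD68, CSF1R, CD14 and others) was at 0 in any valve library. Their summed CPM was 211 to 569.8 in controls, 178 to 492 at 2 weeks, 553 to 2453 at 4 weeks and 1479 to 2151 at 7 weeks. Of the 13, 0 passed at 2 weeks, 9 rose at 4 weeks and 11 rose at 7 weeks, with medians of 0.01, 2.13 and 2.42 on the log2 scale. The 9 valves with the lowest sums were the controls, the 2-week valves and 4-week replicate 4 (178 to 569.8 CPM), and each of them had less MAN2B1 and less GUSB than each of the other 7 (1479 to 2453 CPM). How many of all genes part these sets in the same way was not computed. In whole tissue, more cells of a type and more RNA per cell cannot be told apart, and the part of macrophages in these values was not tested beyond the fit given further on.

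Other marker lists moved as well. Smooth muscle markers summed to 28376 to 44245, 13071 to 27863 and 6611 to 14278 CPM at 2, 4 and 7 weeks, and 5 of 6 fell against controls at 7 weeks (median -1.27) and 6 of 6 from 2 to 7 weeks (median -1.96). The neutrophil markers S100A8 and S100A9 rose at 7 weeks, by 3.43 and 2.63 on the log2 scale, from neutrophil sums of 0.384 to 2.30 CPM in controls to 3.58 to 20.9 CPM. At 7 weeks 3 of 11 cardiomyocyte, 1 of 7 endothelial and 1 of 3 tested lymphocyte markers rose, and 1 of 3 adipocyte markers fell. The part of these cells in the members' values was not tested.

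GLB1 did not follow that division. In 2-week replicate 3, which had the lowest macrophage sum of the 16 valves (178 CPM), GLB1 was at its highest, and MAN2B1 there was above the controls. With the macrophage score (mean log2 CPM of the 13 markers) as a covariate, 0 of 34 genes passed at 4 weeks, at 7 weeks or from 2 to 7 weeks, and MAN2B1 at 7 weeks was 0.502 ± 0.29 (adjusted p = 0.964). In that fit 0 of all 15973 genes passed in these comparisons, and the scores of 7-week valves (5.95 to 6.44) and controls (3.22 to 4.53) did not overlap, so score and group cannot be told apart there.

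In the valve ATP6V1E1 moved instead with the summed cardiomyocyte markers. It was 83.0 to 97.5 CPM in the 8 valves with the lowest sums of 11 cardiomyocyte markers (1312 to 9479.6 CPM), and 106 to 183 CPM in the 8 with the highest (15547 to 42220.5 CPM). All 4 of the 2-week valves were in the lower set, and the share of all genes that parts these sets was not computed. The 11 markers did not move together. Against controls 4 log2 fold changes were above 0 and 7 below at 2 and again at 4 weeks, and 9 and 2 at 7 weeks. From 2 to 7 weeks all 11 were above 0. MYH7 was at 707 CPM in 4-week replicate 1 and 714 CPM in 7-week replicate 3, both in the higher set. At 2 weeks it was 196 to 874 CPM. In the aorta the marker sums were higher on diet (1271 to 1335 CPM, controls 365 to 605), with 8 of 11 log2 fold changes above 0 and 3 below. ATP6V1E1 was lower there on diet (47.9 to 51.2 CPM, controls 56.7 to 70.3), without a call. So were others: 6 of 34 genes, ATP6V1E1 among them, and 2265 of all 14435 genes lay wholly below the aorta controls. MYH7 was also lower in the aorta on diet (37.9 to 40.2 CPM, controls 51.7 to 175). The cardiomyocyte score was the mean log2 CPM of MYH7, TNNT2, MYL2, MYL3, TTN and MYBPC3, not of all 11 markers. With this score as a covariate in the valve, the difference of ATP6V1E1 from 2 to 7 weeks was 0.09 ± 0.28 (adjusted p = 0.934). That of LAMP2 was -0.30 ± 0.27. The scores of the 2-week (6.56 to 8.79) and 7-week valves (9.18 to 12.1) did not overlap, and calls over all genes went from 4261 to 153 in this fit, so score and time cannot be told apart there. In the same fit 0 of 34 genes passed at 4 weeks or from 2 to 7 weeks, with MAN2B1 at 1.19 ± 0.35 in the latter (adjusted p = 0.1). Against controls at 7 weeks MAN2B1 was 1.497 ± 0.24 (adjusted p = 0.00697), and GUSB and ATP6V1B2 also kept their calls.

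**Figure D4:**
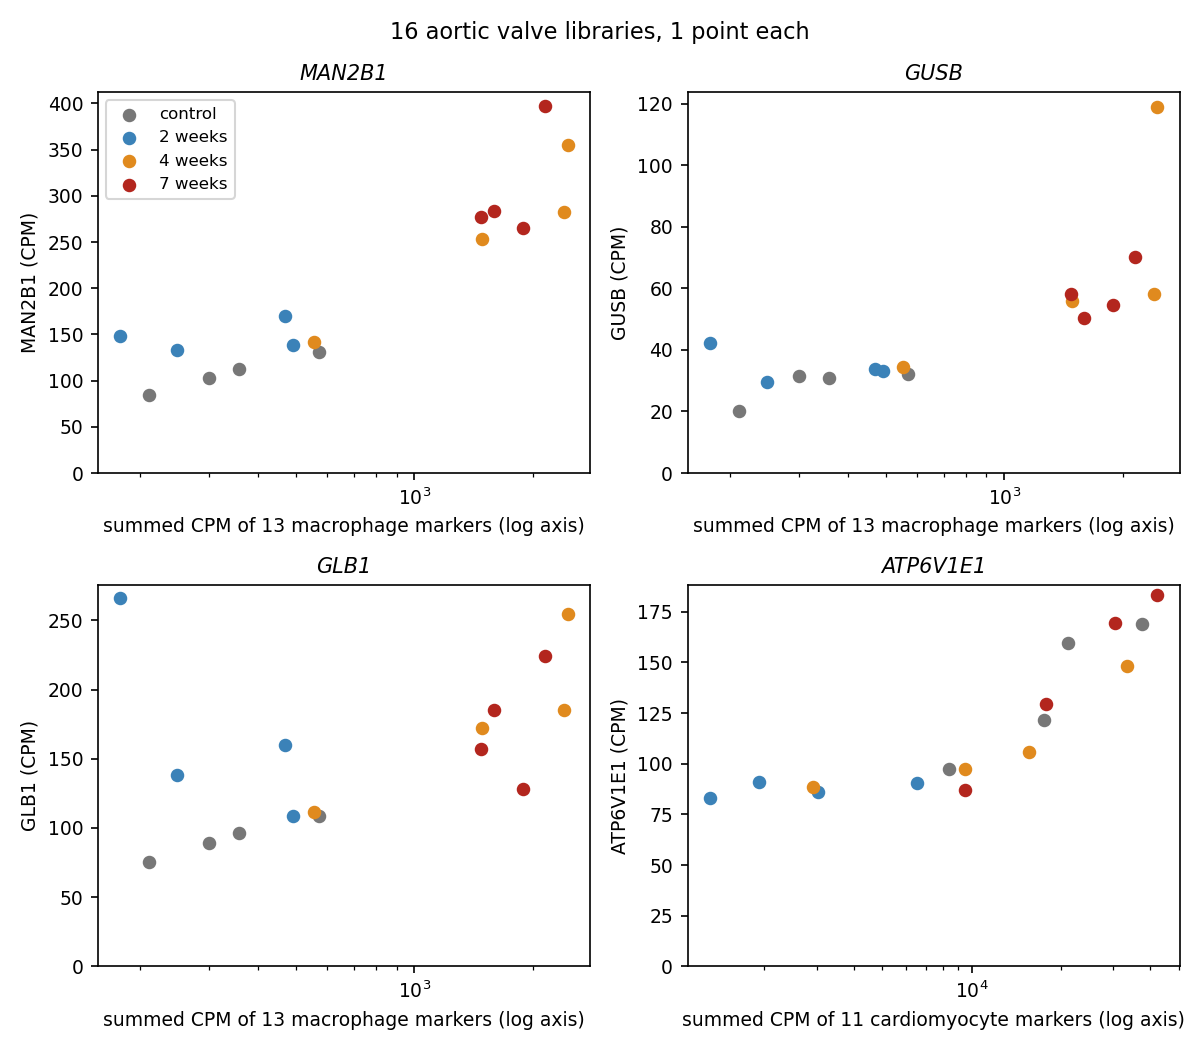
CPM of MAN2B1, GUSB and GLB1 against the summed CPM of 13 macrophage markers, and of ATP6V1E1 against the summed CPM of 11 cardiomyocyte markers (log axes), 1 point per valve library. In the MAN2B1 and GUSB panels 7 libraries of 4 and 7 weeks sit apart at the upper right, and in the GLB1 panel 2-week replicate 3 sits at the upper left.

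In the ascending aorta no member passed. edgeR called 0 of 34, where it called 0.159% of all genes, and DESeq2 called 0 of 34. At an unadjusted p below 0.05 there were 4 of 34, beside 1768 of all 14435 genes. Without aorta control replicate 2 edgeR called 1, NPC1. Calls over all genes ran from 2 to 284 in the fits without 1 library. MAN2B1 was at 108, 146 and 115 CPM in the 3 controls and 109 and 107 CPM in the 2 diet aortas, and GUSB at 17.3, 31.8 and 24.0 against 28.5 and 25.5 CPM. Both genes overlapped between diet and control. The largest value above 0 was ATP6V0A1 (0.499 ± 0.17, adjusted p = 0.36) and the largest below was CLN3 (-0.47 ± 0.17, adjusted p = 0.372). The median of the list was -0.03, beside -0.02 over all genes. Macrophage markers summed to 149.6 to 171 CPM in control and 122 to 131 CPM in diet aorta.

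In the myocardium no member passed either. edgeR and DESeq2 both called 0 of 34, where edgeR called 0.0848% of all genes. edgeR also called 0 when any of the 6 libraries was left out. At an unadjusted p below 0.05 there were 0 of 34, beside 1252 of all 14151 genes. MAN2B1 was at 43.9, 45.4 and 66.8 CPM in controls and 58.4, 52.8 and 65.7 CPM on diet, and GUSB at 2.91, 5.04 and 3.14 against 4.55, 4.05 and 6.02 CPM, each with overlap. The median of the list was 0.12 (all genes -0.01), and 23 of 34 values were above 0. LAMP2 (0.43 ± 0.22) and GAA (0.43 ± 0.28) had the largest, neither near the threshold (adjusted p = 0.663 and 0.781).

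Whether the diet effect itself differed between tissues was tested in joint fits. For the 7-week valve against the myocardium, edgeR called 0 of 34, where 0.639% of all genes were called. At an unadjusted p below 0.05 there were 4 of 34, beside 2517 of all 16581 genes. MAN2B1 had the largest difference of effects, 1.302 ± 0.35 on the log2 scale (adjusted p = 0.093). It was the 1 member called by DESeq2 and by limma voom with the animal as a block. Both methods called more of all genes than edgeR did, as given further on. Against the aorta, with the mean of the 3 valve times, edgeR and DESeq2 called 0 of 34, where edgeR called 0.0474% of all genes. At an unadjusted p below 0.05 there were 3 of 34, beside 1548 of all 16866 genes. MAN2B1 was again the largest, 1.22 ± 0.34 (adjusted p = 0.41). The rise of MAN2B1 and GUSB in the valve is therefore not shown to differ from the other tissues past the threshold of the main test. That test took the libraries of animals that gave both tissues as independent.

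Without diet, the lysosomal genes differed most between myocardium and the other tissues. In control valve against control myocardium 12 of 34 were higher and 2 lower, where 23.4% of all genes were higher and 22.5% lower (46% called). In control aorta against control myocardium 13 were higher and 3 lower, where 27% and 25.8% of all genes were (52.8% called). With the RLE scaling of DESeq2 the aorta counts were 11 and 5. Control valve and control aorta differed in 2 of 34, where 22.2% of all genes were called. In each case the share of the list called in either direction was below that of all genes. By direction, against myocardium, the share of the list was above that of all genes for higher and below it for lower. Levels in this paragraph and the next come from 1 fit of the 10 control libraries. Some of the animals gave both valve and myocardium, and that fit took their libraries as independent.

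GUSB was at 24.9 ± 4.95 CPM in valve (SD, n = 4), 24.4 ± 7.76 CPM in aorta (n = 3) and 4.52 ± 1.43 CPM in myocardium (n = 3), a log2 fold change over myocardium of 2.46 ± 0.30 and 2.44 ± 0.31. GM2A, which presents ganglioside to hexosaminidase, was at 188 ± 25.02, 200.04 ± 20.6 and 40.6 ± 2.66 CPM, with 2.21 ± 0.17 and 2.30 ± 0.17. For both the myocardial libraries lay far below all others, and valve and aorta did not part. In the same direction in both comparisons were NAGLU (1.51 and 1.48), NPC2 (1.51 and 1.60), GLB1 (1.17 and 1.58), LAMP2 (0.87 and 1.00), TFE3 (0.93 and 1.11), PPT1 (0.78 and 0.92), GLA (0.88 and 0.52), ASAH1 (0.57 and 0.46) and ATP6AP2 (0.40 and 0.41). The aorta calls of GLA, ASAH1 and ATP6AP2 were lost in 5, 5 and 4 of 6 fits without 1 library, and the valve call of ATP6AP2 in 4 of 7. GLA held without myocardium control replicate 2, ASAH1 without aorta control replicate 3, and the ATP6AP2 calls were lost without myocardium control replicate 1 or 2, aorta control replicate 1 or 2 and valve control replicate 1 or 4. ATP6V0D1 was called in the valve comparison (0.56), and MAN2B1 (0.95) and TFEB (0.41) in that of the aorta, the TFEB call being lost in 6 of 6 fits without 1 library.

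Genes higher in myocardium were few. GAA, the acid alpha-glucosidase that degrades glycogen in lysosomes, was at 158 ± 51.9 CPM in myocardium, 72.3 ± 11.1 in valve and 58.8 ± 10.7 in aorta, a log2 fold change of -1.13 ± 0.24 (valve) and -1.42 ± 0.26 (aorta) relative to myocardium. ATP6V1E1 was at 223 ± 17.9 CPM in myocardium, 119 ± 29.6 in valve and 62.2 ± 5.88 in aorta, with -0.91 ± 0.20 and -1.84 ± 0.22. Its 3 tissues were ordered without overlap, aorta lowest, and it also separated valve from aorta (0.94 ± 0.21, adjusted p = 0.0104). Of the 11 cardiomyocyte markers 10 were also higher in control valve than in control aorta (median 6.02), with sums of 8381 to 37489.7 against 365 to 605 CPM, and their part in this difference was not tested. TPP1 was lower in aorta than in myocardium (-0.82 ± 0.24), a call lost without aorta control replicate 3 (adjusted p = 0.0574). HEXA was the other gene higher in valve than in aorta (0.66 ± 0.19, adjusted p = 0.0328), and its call was lost without valve control replicate 1 or 4 or aorta control replicate 1 or 3. Apart from ATP6V1E1, the V1 genes and ATP6AP1 were not called in any tissue pair.

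**Figure D5:**
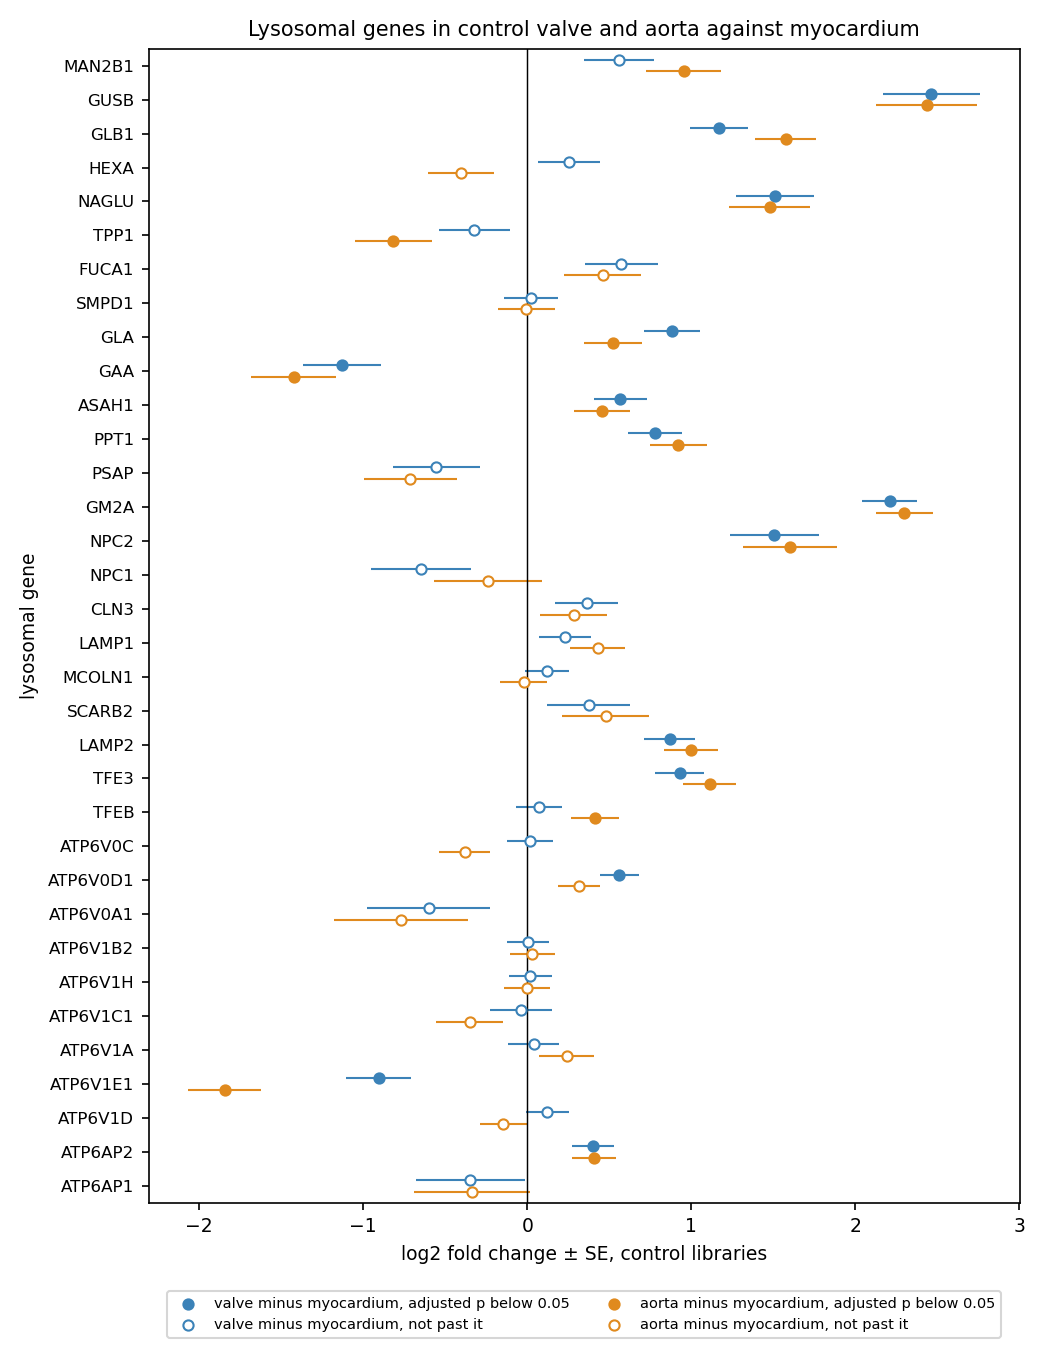
Log2 fold change of each gene in control valve (blue) and control aorta (orange) against control myocardium, with the SE of the fit and filled points where the adjusted p is below 0.05. GUSB and GM2A lie farthest to the right, above 2 in both, while GAA and ATP6V1E1 lie to the left.

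Other lysosomal genes were read beside the same shares of all genes. Of 102 further hydrolases, membrane proteins, pump subunits and regulators, 97 were found and 92 tested in the valve. None was called at 2 weeks, with 8 of 92 at an unadjusted p below 0.05, beside 2622 of all 15973 genes. At 4 weeks 2 of 92 rose (2% of all genes called), at 7 weeks 8 rose and 2 fell (7.79%), and from 2 to 7 weeks 13 rose and 6 fell (26.7%). By direction, 5.2% of all genes rose and 2.6% fell at 7 weeks, and 14.5% and 12.2% from 2 to 7 weeks. The share of the 92 was near that of all genes at 4 and at 7 weeks and below it from 2 to 7 weeks. The medians were 0.10, 0.11 and 0.15 against controls at 2, 4 and 7 weeks.

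The largest was ATP6V0D2, a pump subunit known from osteoclasts and macrophages, at 0.243 to 1.56 CPM in controls, 0.246 to 0.839 CPM at 2 weeks, 3.34 to 29.7 CPM at 4 weeks and 3.62 to 8.81 CPM at 7 weeks. Its log2 fold change was 3.69 ± 0.71 at 4 weeks and 2.96 ± 0.70 at 7 weeks (adjusted p = 0.0196 and 0.0207), from as few as 3 counts in a control library. Of 5 osteoclast markers found, OCSTAMP and CALCR were at 0 in at least 1 library of every valve group, and DCSTAMP was at 0 in some control and 2-week libraries and in none at 4 or 7 weeks. DCSTAMP was higher at 4 than at 2 weeks (5.34 ± 1.38, adjusted p = 0.0408) and did not pass against controls at 4 weeks (4.18 ± 1.27, adjusted p = 0.114), a fitted value that rests on libraries at 0. CTSK and NFATC1 were not called at any time. LAPTM5, a lysosomal protein of blood cells, was at 45.9 to 101 CPM in controls and 257 to 419 CPM at 7 weeks, with 1.83 ± 0.37 and 1.97 ± 0.37 at 4 and 7 weeks. At 7 weeks the pump subunit ATP6V1F (0.84) and the hydrolase DNASE2 (0.77) also rose, and LMBRD1 (-0.45), which helps export vitamin B12 from lysosomes, and GABARAPL1 (-0.39), an autophagy protein, fell. From 2 to 7 weeks the next largest after ATP6V0D2 (3.52) and LAPTM5 (2.63) were TFEC, a relative of TFEB (1.63), PPARGC1A (1.34) and ATP6V1F (1.00). From 2 to 4 weeks ATP6V0D2 (4.25), LAPTM5 (2.49) and TFEC (1.96) rose. None of the further genes was called from 4 to 7 weeks, in aorta or in myocardium by edgeR. There 3 of 92, 13 of 89 and 4 of 88 had an unadjusted p below 0.05. Over all genes 1921 of 15973, 1768 of 14435 and 1252 of 14151 did.

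Against control myocardium 30 of 90 further genes were higher and 19 lower in valve, where 23.4% of all genes were higher and 22.5% lower. In aorta 32 were higher and 21 lower, where 27% and 25.8% of all genes were. Among those with at least 10 counts in each control library, the largest in both were the hyaluronidase HYAL1 (2.90 and 3.51) and NAAA (2.18 and 2.51), and, lower, PPARGC1A (-2.33 and -3.80) and RRAGD (-2.19 and -3.48). The channel MCOLN3, also called in both, was at 1.89 to 3.13 CPM in control valve, 0.900 to 1.79 CPM in control aorta and 0.0672 to 0.145 CPM in control myocardium, there with as few as 1 count. ATP6V0D2, called in the valve comparison, had libraries at 0 in control myocardium. Between control valve and control aorta 8 were higher in valve and 2 lower, where 13% of all genes were higher and 9.19% lower. The largest were LAPTM5 (1.87), PPARGC1A (1.48), RRAGD (1.29), GALC (0.79) and TMEM175 (0.69).

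The members also differed in how steady they were from valve to valve. The highest of the 16 libraries exceeded the lowest by a median ratio of 2.04 over the 34 genes, from 1.32 for ATP6V1D to 5.90 for GUSB, 4.71 for MAN2B1 and 3.78 for PPT1. Of the 34, 4-week replicate 3 had the highest level of 10 and 7-week replicate 2 that of 8. The latter library also had the lowest level of 9 (among them PPT1, LAMP2, ASAH1 and ATP6V0A1), so its genes spread in both directions. Control replicate 3 had the lowest level of 12, GUSB, MAN2B1 and GLB1 among them, and 4-week replicate 4 was the lowest of its group for 19. Leaving such a library out changed the calls as given beside each gene above.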

How the data were processed

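Bulk RNA of 16 aortic valve, 5 ascending aorta and 6 myocardium samples was sequenced with a directional NEBNext Ultra II kit as 100 bp single-end reads on a NovaSeq instrument, per the labels' protocols. The values deposited by the authors are expected counts per gene, as the fractions in them show, with RSEM among the listed tools. Per the submitters' processing notes, the authors' tools were STAR (version 2.7.8a), RSEM (1.3.3), Trim Galore (0.6.6), FastQC (0.11.9) and edgeR (3.42.4), with no order given. The sources used here do not give the genome build, the annotation or the strand setting, and antisense reads are not told apart. Of the valve values 10.1% were not whole, and all were rounded. The authors' second valve table, with 31000 of 31346 genes, lacks none of the 34 members and served as an alternative.

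edgeR 4.0.16 in R 4.3.3 was used with its quasi-likelihood test. Genes were kept by filterByExpr (minimum count 10, minimum total 15), scaled by TMM, and p-values were adjusted by Benjamini and Hochberg over all genes tested, with 0.05 as threshold. All 16 valve libraries were fitted together, as were each of the other tissues and the 10 controls, and SE is the log2 fold change over the square root of F. The fit was tested on simulated data. P-values weigh a difference between groups against the spread between animals of a group. In the fits that joined tissues, some animals gave libraries of both, and edgeR took these as independent. Where an adjusted p is printed, it comes from this test unless DESeq2 1.42.0 or limma 3.58.1 is named.

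Replicate numbers did not pair valve libraries: deviations of 24 same-numbered pairs correlated at -0.34 to 0.126. The members and lists were chosen with earlier results of these data known. Values per library are given for members called in a diet comparison and the 3 with the largest 7-week change, other members by range, and of the further genes up to 5 called per comparison. LMBRD1 and GABARAPL1 were named after their values were seen. Alternatives were RLE scaling, no filter, DESeq2, the authors' second valve table, fewer or more libraries per fit, a replicate or animal block, marker scores as covariates (mean log2 CPM, prior count 2) and leaving out each library. Promoter letters were not analysed here.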

Additional observations from a re-analysis of the deposited data

Results flagged for a closer look

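In 9 of 136 sets of 4 libraries (a member in a valve group), 1 library lay so far from the other 3 that the gap passed Dixon's 95% critical value, and chance gives about 1 set in 20. At 7 weeks MAN2B1 was 397 CPM in replicate 4 (265 to 284 CPM in the others), and PPT1 was 16.4 CPM in replicate 2 (39.1 to 42.1 CPM), the smallest library of the valves. At 4 weeks LAMP1 was 303 CPM in replicate 4 (411 to 433 CPM), the library with the lowest macrophage marker sum of its group. Among controls GUSB was 20.1 CPM in replicate 3 (30.8 to 32.3 CPM) and GLA was 17.6 CPM in replicate 4 (14.9 to 15.2 CPM).

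At 2 weeks replicate 2 stood apart for 3 genes. ATP6AP1 was 62.2 CPM there (48.8 to 49.7 CPM in the others), TPP1 was 57.4 CPM (46.3 to 48.2 CPM) and TFEB was 35.6 CPM (46.9 to 48.7 CPM). ATP6AP2 at 2 weeks was 139.8 CPM in replicate 3 (92.1 to 98.1 CPM). None of these genes was called at 2 weeks.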

How the results depend on the processing

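Members called in the main fits were recomputed under the alternatives, giving 526 values. Of these, 400 kept direction and call, 126 kept direction and lost the call, and 0 changed direction. The call was kept in 12 of 32 values at 4 weeks, 26 of 48 at 7 weeks and 54 of 96 from 2 to 7 weeks. Among control tissues it was kept in 162 of 168 (valve and myocardium), 129 of 160 (aorta and myocardium) and 17 of 22 (valve and aorta). RLE scaling and the authors' second valve table gave the same calls in the valve. Counts of members that moved by over 1.5 times were as follows, and the cause was not tested. At 7 weeks the 3 calls became 1 with no filter, 7 with DESeq2 and 0 with the macrophage score. At 4 weeks the 2 calls became 0 with the 8 libraries of the 2 groups alone, 0 with the cardiomyocyte score and 0 with the macrophage score. From 2 to 7 weeks the 6 calls became 0 with either score. DESeq2 called 1 at 2 weeks, 3 from 2 to 4 weeks and 1 in the difference between valve and myocardium, where limma voom with the animal as a block also called 1. Control valve and control aorta differed in 1 gene when all 27 libraries shared 1 fit. Leaving out 1 library gave 1 to 7 calls at 7 weeks, 0 to 6 at 4 weeks, 0 to 5 from 2 to 4 weeks, 2 to 9 from 2 to 7 weeks, 0 to 1 in aorta and 1 to 3 between control valve and aorta. Over all genes, in the same order, it gave 445 to 2261, 0 to 791, 207 to 1225, 2626 to 5608, 2 to 284 and 1795 to 3356.

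With the replicate block, although the numbers showed no pairing (2 of 24 correlations above 0.1), members called were 1 at 7 weeks, 0 at 4 weeks and 3 from 2 to 7 weeks. Counts of all genes with the replicate block were 663 at 7 weeks, 5 at 4 weeks, 0 at 2 weeks, 264 from 2 to 4 weeks, 10 from 4 to 7 weeks and 96 in aorta. The main counts were 1245, 319, 4, 697, 16 and 23.

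DESeq2 called more of all genes: 2197 at 7 weeks, 765 at 4 weeks, 950 at 2 weeks, 1490 from 2 to 4 weeks, 200 from 4 to 7 weeks, 391 in aorta and 303 in myocardium (main 12). It called 497 (main 106) and 81 (main 8) in the differences from myocardium and aorta. The fit of 8 libraries alone called 431, 2, 196 and 2 at 2 weeks, at 4 weeks, from 2 to 4 and from 4 to 7 weeks. The cardiomyocyte score gave 0 at 2 and at 4 weeks, 343 from 2 to 4, 153 from 2 to 7 (main 4261) and 9 from 4 to 7 weeks, and the macrophage score 7 at 2 weeks and 0 in the other comparisons with controls and with 2 weeks. No filter gave 76 in myocardium and 70 in its difference from valve, where voom gave 183. The animal block could not be fitted for valve against aorta and was not run.

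The number of animals per group (4, 3 or 2) limits what can be called, and the control age is uncertain.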
